A study of Rattus norvegicus with 6 samples.

Results

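The myelin genes described are the 8 genes Mbp, Pmp22, Prx, Ncmap, Mag, Egr2, Mal and Cnp, which were taken by name from the deposited table of raw gene counts, and all 8 of the 25689 genes of that table were found. They were measured in neurons isolated from dorsal root ganglia (DRGs) at L1-L2, from rats of the spontaneously hypertensive (SHR) strain, in 3 samples taken 4 weeks after perirenal adipose tissue ablation (PRATA) and 3 taken after a sham operation. All 6 samples carry the wild type genotype label and an age label of 6 to 8 weeks, and the series design counts 3 rats in each group. The paper's methods give an older age for the SHRs at purchase, so the age of these rats at sampling is not settled. All 6 samples are of this strain, so both groups share the hypertensive background. Collagenase and then trypsin were used to dissociate the ganglia, and the cells were passed through a strainer and plated for a few hours, and the neurons were then flushed from the dish because glial cells adhere at a different speed. The values therefore come from a preparation meant to hold few Schwann cells, and the question put to the table was at what level their myelin genes were still found and whether that level differed between PRATA and sham.

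Schwann cells wrap the axons of peripheral nerves, and the large sensory axons that leave a DRG are covered by their myelin. Compact myelin is built from stacked membranes held together by proteins such as myelin basic protein, whereas periaxin and myelin associated glycoprotein sit in the parts that keep cytoplasm or face the axon. The transcription factor EGR2, acting with SOX10, switches on this set of genes and keeps it on. Several of the 8 genes (Mbp, Mag, Mal and Cnp) are also used by oligodendrocytes, the myelinating cells of the brain and spinal cord, while Prx and Ncmap are known from peripheral myelin.

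Total counts lay between 5892967 and 15226952 per sample, and a floor of 3 counts corresponded to between 0.207 and 0.468 CPM (counts per 1000000 counts of the library, with library sizes scaled by edgeR's TMM method). Such floors cover counting error only. The quasi-likelihood test of edgeR was run on 14919 genes, those left by its low-count filter. PRATA replicate 3 and sham replicate 1 stood apart from the other 4 samples in the reads on 2 copies of 7SL RNA, with 98.9% and 99.5% of these reads on Rn7sl1 against 47.3% to 49.3%, a split that crosses the groups. Values within the other 4 samples (PRATA replicates 1 and 2, sham replicates 2 and 3) are given below. In RefSeq, 6 of the 8 genes (all but Egr2 and Cnp) overlap another annotated gene, such as the pseudogene Tmem258-ps4 at Prx, and since the strand setting of the counting is not given, reads of such neighbours cannot be told apart. In bulk RNA, fewer cells of a type and less RNA per cell cannot be told apart.

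All 8 genes had a positive log2 fold change after PRATA, but only Prx, Ncmap and Cnp had an unadjusted p under 0.05 in edgeR, and none had an adjusted p under 0.05. Over all genes tested, 8.19% were higher after PRATA at an unadjusted p under 0.05, 10.1% were lower, and 0% reached an adjusted p under 0.05. None of the 8 genes was lower at this p. DESeq2 and limma voom with sample quality weights each placed 1 of the 8 genes, Prx, under an adjusted p of 0.05, and limma-trend placed 0. The lowest PRATA sample exceeded the highest sham sample for 4 of the 8 genes (Prx, Ncmap, Cnp and Pmp22), which was the case for 11.6% of all genes tested, and the reverse order, found for 11.2% of all genes, was found for none of the 8. The median log2 fold change of the 8 genes was 0.73, beside 0.02 over all genes tested, of which 52.0% were above 0. Ncmap passed the filter on low counts through the PRATA samples alone, so its difference is tied to its being tested. Among the other 7 genes, 2 had an unadjusted p under 0.05, 3 had groups that did not overlap, and the median was 0.69. For a single gene, an exact permutation test of 3 samples against 3 cannot give a p under 0.10.

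**Figure D1:**
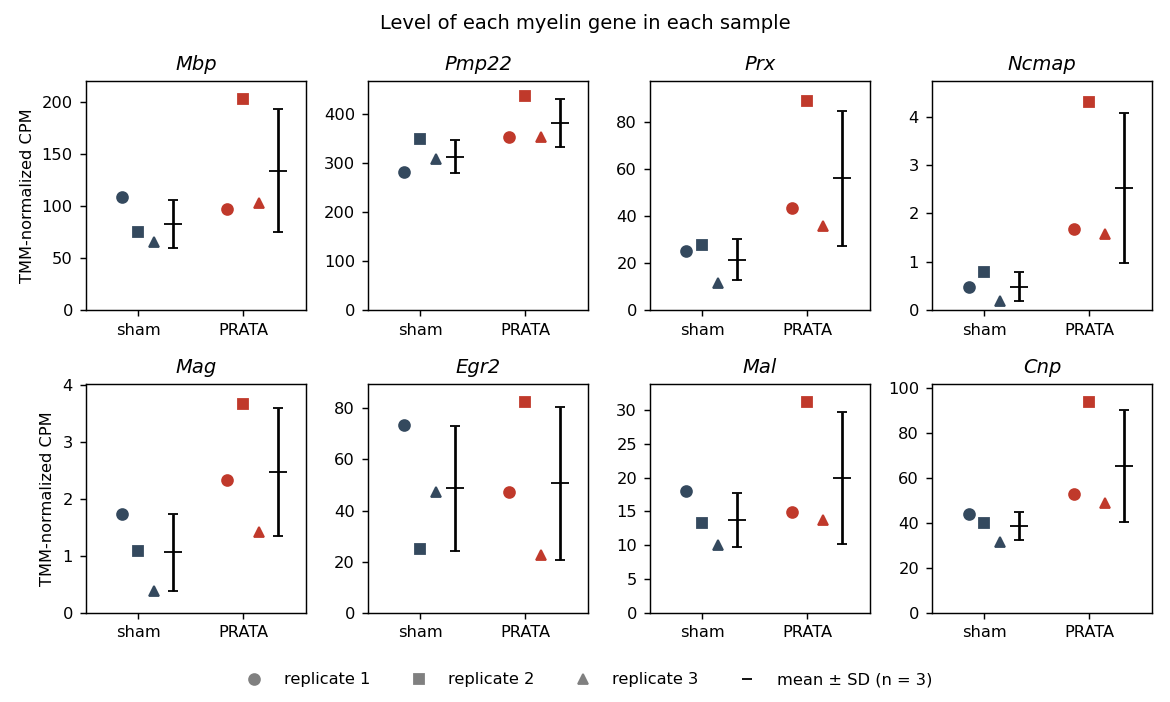
Each panel plots the TMM-normalized CPM of one gene on its own linear axis from 0, with a point for each of the 3 sham and 3 PRATA samples and the mean ± SD beside them. PRATA replicate 2 was the highest point in all 8 panels, and sham replicate 3 was the lowest in 6 of them.

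Prx (ENSRNOG00000018369) encodes periaxin, a scaffold protein that ties the Schwann cell membrane to the surrounding basal lamina through dystroglycan. Its level was 43.4, 88.7 and 35.6 CPM across PRATA replicates 1, 2 and 3, against 25.3, 27.5 and 11.4 CPM across sham replicates 1, 2 and 3. The lowest PRATA sample therefore lay above the highest sham sample, and PRATA replicate 2 was far above all others. The mean was 55.9 ± 28.7 CPM in PRATA samples and 21.4 ± 8.70 CPM in sham samples (SD, n = 3 each), a ratio of 2.61. The log2 fold change was 1.39 (standard error 0.43, 95% interval 0.41 to 2.37, edgeR unadjusted p = 0.0114, adjusted p = 0.182). Without PRATA replicate 2 it was 0.89 (edgeR unadjusted p = 0.0469), and within the 4 samples alike in 7SL RNA it was 1.79.

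Ncmap (ENSRNOG00000048139) encodes a small membrane protein of non-compact myelin, first known as MP11. It was counted 13, 54 and 20 times across PRATA replicates 1, 2 and 3, against 7, 5 and 2 times across sham replicates 1, 2 and 3, and the last of these is under the floor of 3 counts. In normalized terms the PRATA samples were at 1.68, 4.30 and 1.58 CPM and the sham samples at 0.484, 0.780 and 0.189 CPM. The groups did not overlap, and the counts of the sham samples are too few to fix its level there closely. The log2 fold change was 2.44 (standard error 0.67, 95% interval 0.90 to 3.98, edgeR unadjusted p = 0.00644, adjusted p = 0.169), the highest of the 8 genes. It was 1.79 without PRATA replicate 2 (with an edgeR unadjusted p just over 0.05), 2.75 within the 4 samples alike in 7SL RNA, and 1.18 with limma-trend, whose pseudocount of 1 CPM is above the sham levels.

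The reference promoter windows of Prx, Ncmap and Cnp are shown because these are the genes with an unadjusted p under 0.05. Each window runs from 250 bases before to 50 after a start site annotated by RefSeq on build GRCr8, which is not known to be the build of the counts, and the windows were matched by gene symbol for all 8 genes. They lie at chr1:91914171-91914470 on the plus strand (Prx), chr5:152902365-152902664 on the minus strand (Ncmap) and chr10:86011254-86011553 on the plus strand (Cnp). A lone capital marks the first transcribed base, and the run of capitals in Cnp marks a SOX match.
Prx: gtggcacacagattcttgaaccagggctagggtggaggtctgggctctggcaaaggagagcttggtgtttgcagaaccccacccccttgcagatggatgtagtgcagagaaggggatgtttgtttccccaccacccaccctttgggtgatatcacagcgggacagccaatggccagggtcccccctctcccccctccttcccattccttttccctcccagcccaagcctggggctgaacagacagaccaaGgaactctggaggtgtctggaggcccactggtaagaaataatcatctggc
Ncmap: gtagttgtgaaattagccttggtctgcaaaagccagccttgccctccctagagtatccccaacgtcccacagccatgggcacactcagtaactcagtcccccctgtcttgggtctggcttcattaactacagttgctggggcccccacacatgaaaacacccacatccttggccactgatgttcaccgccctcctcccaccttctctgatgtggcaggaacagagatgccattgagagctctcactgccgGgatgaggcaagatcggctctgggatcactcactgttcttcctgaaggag
Cnp: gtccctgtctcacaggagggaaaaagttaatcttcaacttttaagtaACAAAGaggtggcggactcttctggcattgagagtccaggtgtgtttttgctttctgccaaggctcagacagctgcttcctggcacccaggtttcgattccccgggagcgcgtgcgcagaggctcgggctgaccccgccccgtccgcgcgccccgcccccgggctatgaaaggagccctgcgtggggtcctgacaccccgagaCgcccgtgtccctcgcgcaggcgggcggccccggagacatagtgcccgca
Both strands were searched for the EGR letters GCGNGGGCG and the SOX core letters ACAAT or ACAAAG, which do not overlap each other. The EGR letters were in the windows of 0 of the 8 genes and in 4.98% of 33469 RefSeq windows of this length. The SOX letters were in a window of 3 of the 8 genes, Cnp, Mag and one of the windows of Mbp, and in 44.9% of all windows. The 8 genes had 9 windows, 2 of them of Mbp, and the shares over RefSeq are per window and not per gene. In Cnp the match began 203 bases before the start site, and in Mag 152 bases before it, where the match was on the opposite strand. These are matches of letters in short windows and not sites of binding, and they do not bear on more distant elements.

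Cnp (ENSRNOG00000017496) encodes an enzyme of the cytoplasmic channels of myelin that is also known as CNPase. It was at 53.1, 94.1 and 48.7 CPM across PRATA replicates 1, 2 and 3, against 43.9, 40.1 and 31.6 CPM across sham replicates 1, 2 and 3. The groups did not overlap, but the gap between PRATA replicate 3 and sham replicate 1 was small. The mean was 65.3 ± 25.0 CPM in PRATA samples and 38.6 ± 6.29 CPM in sham samples (SD, n = 3 each), with a log2 fold change of 0.76 (standard error 0.28, 95% interval 0.12 to 1.40, edgeR unadjusted p = 0.0257, adjusted p = 0.225). Without PRATA replicate 2 it was 0.40 (edgeR unadjusted p = 0.103), and without sham replicate 3 it was 0.64 (edgeR unadjusted p = 0.0898).

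Mag (ENSRNOG00000021023) encodes the adhesion protein on the inner myelin membrane that faces the axon. It was a gene of few counts, with 18, 46 and 18 across PRATA replicates 1, 2 and 3, against 25, 7 and 4 across sham replicates 1, 2 and 3. The levels were 2.32, 3.67 and 1.42 CPM after PRATA and 1.73, 1.09 and 0.378 CPM after the sham operation, so that sham replicate 1 lay above PRATA replicate 3. Its log2 fold change of 1.18 had a wide 95% interval, from -0.24 to 2.61 (standard error 0.62, edgeR adjusted p = 0.339). It was 0.78 without PRATA replicate 2 and also 0.78 without sham replicate 3, 1.80 without sham replicate 1, and 2.103 within the 4 samples alike in 7SL RNA.

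Mbp (ENSRNOG00000016516), the gene of myelin basic protein, which seals the cytoplasmic faces of compact myelin, was at 97.1, 202.5 and 102.9 CPM across PRATA replicates 1, 2 and 3, against 108.9, 74.9 and 65.3 CPM across sham replicates 1, 2 and 3. Sham replicate 1 lay above PRATA replicates 1 and 3, so the groups overlapped. The mean was 134.2 ± 59.3 CPM in PRATA samples and 83.0 ± 22.9 CPM in sham samples (SD, n = 3 each), with a log2 fold change of 0.69 (standard error 0.33, 95% interval -0.06 to 1.44, edgeR adjusted p = 0.303). It was 0.27 without PRATA replicate 2 and 1.10 within the 4 samples alike in 7SL RNA.

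Mal (ENSRNOG00000015445) encodes a small membrane protein with roles in lipid sorting, and its levels were ordered much like those of Mbp. It was at 14.97, 31.2 and 13.7 CPM across PRATA replicates 1, 2 and 3, against 18.0, 13.3 and 10.1 CPM across sham replicates 1, 2 and 3. PRATA replicate 2 was alone above the sham range, and the log2 fold change of 0.53 (standard error 0.36, 95% interval -0.31 to 1.37, edgeR adjusted p = 0.460) was 0.05 without that sample and 0.995 within the 4 samples alike in 7SL RNA.

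Pmp22 (ENSRNOG00000003338) encodes a protein of compact myelin that many other cells also make at lower levels. Its levels were 352.8, 437.5 and 354.1 CPM across PRATA replicates 1, 2 and 3, against 282.6, 349.9 and 307.7 CPM across sham replicates 1, 2 and 3. The groups were next to each other without overlapping, with the highest sham sample just below the lowest PRATA sample. Its highest and lowest samples differed by a factor of 1.55, the narrowest spread of the 8 genes, and the log2 fold change was 0.28 (standard error 0.19, 95% interval -0.16 to 0.73, edgeR adjusted p = 0.458).

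Egr2 (ENSRNOG00000000640), the regulator among the 8 genes, was at 47.1, 82.3 and 22.6 CPM across PRATA replicates 1, 2 and 3, against 73.7, 25.0 and 47.3 CPM across sham replicates 1, 2 and 3. The range of the sham samples lay inside that of the PRATA samples, and PRATA replicate 3 was the lowest of all. The log2 fold change was 0.05 (standard error 0.50, 95% interval -1.10 to 1.20, edgeR adjusted p = 0.965). It was -0.49 without PRATA replicate 2, 0.41 without PRATA replicate 3, -0.25 without sham replicate 2 and 0.82 within the 4 samples alike in 7SL RNA.

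**Figure D2:**
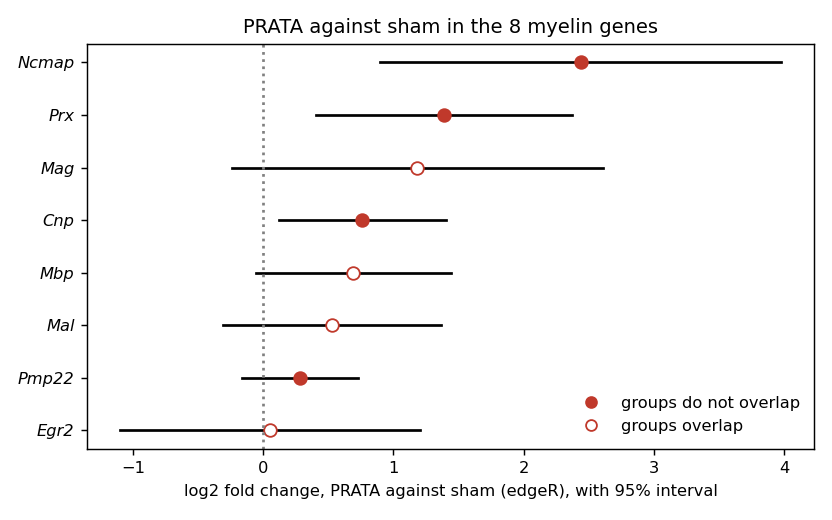
Points give the edgeR log2 fold change of each gene, PRATA against sham, and lines its 95% interval, with filled points for genes whose groups did not overlap. The intervals of Ncmap, Prx and Cnp lie above 0, those of the other 5 genes include 0, and Egr2 is near 0 at 0.05.

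PRATA replicate 2 held the highest level of all 8 genes, between 1.24 (Pmp22) and 2.56 (Ncmap) times the next PRATA sample. Sham replicate 3 held the lowest level of 6 of them, all but Pmp22 and Egr2. When PRATA replicate 2 was left out, 1 of the 8 genes (Prx) kept an unadjusted p under 0.05, against 5 when sham replicate 1 was left out (Prx, Ncmap, Cnp, Mbp and Mag). Within the 4 samples alike in 7SL RNA, 6 of the 8 genes had an unadjusted p under 0.05 (all but Pmp22 and Egr2), and 0 an adjusted p under 0.05 in edgeR. That fit set PRATA replicates 1 and 2 against sham replicates 2 and 3. It left out the lowest PRATA sample of Prx, Ncmap, Mag, Egr2, Mal and Cnp. The highest sham sample of Mbp, Mag, Egr2, Mal and Cnp was left out too. The lowest PRATA sample of Mbp and Pmp22 stayed in, as did the highest sham sample of Prx, Ncmap and Pmp22. Over all genes, those higher at an unadjusted p under 0.05 were 1160 of 15408 without PRATA replicate 2, 995 of 15360 without sham replicate 1 and 885 of 14808 within the 4 samples.

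To set Prx and Ncmap beside the other 6 genes, the difference of their log2 CPM was taken within each sample, which removes what raises or lowers all myelin genes of a sample alike. Relative to Mbp, Ncmap was at -5.71, -5.50 and -5.87 log2 units across PRATA replicates 1, 2 and 3, against -7.35, -6.28 and -7.45 across sham replicates 1, 2 and 3. PRATA replicate 2, which led in every level, no longer stood apart in Ncmap relative to Mbp, where the group means differed by 1.34. It still stood apart relative to Pmp22, with Ncmap at -6.61 against -7.56 and -7.65 in PRATA replicates 1 and 3. Prx relative to Pmp22 was at -2.30 in PRATA replicate 2, against -3.02 and -3.31 in PRATA replicates 1 and 3. Relative to Mbp, Prx was at -1.16, -1.19 and -1.53 after PRATA and at -2.10, -1.44 and -2.49 after the sham operation, where sham replicate 2 lay above PRATA replicate 3. The means differed by 0.72 (exact permutation test, two-sided, p = 0.20, adjusted p = 0.24 over the 12 pairs).

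Of the 12 pairs, 6 with Prx and 6 with Ncmap, the PRATA samples were all above the sham samples in 3 pairs with Prx (to Pmp22, Mal and Cnp) and 5 with Ncmap (to all but Mag). Each of these 8 pairs had the smallest p that the design allows (exact permutation test, two-sided, p = 0.10, adjusted p = 0.15). Prx relative to Cnp was at -0.29, -0.09 and -0.45 log2 units across PRATA replicates 1, 2 and 3, against -0.79, -0.54 and -1.45 across sham replicates 1, 2 and 3, a difference of the means of 0.65. Relative to Mag, the means differed by 0.20 for Prx (exact permutation test, two-sided, p = 0.50) and by 0.81 for Ncmap (exact permutation test, two-sided, p = 0.20), with overlapping groups in both. All 12 differences were positive, and those with Ncmap rest on its few counts in the sham samples. Ncmap passed the low-count filter through the PRATA samples alone, so its 6 pairs are tied to that filter. The 12 pairs reuse Prx and Ncmap, whose own levels were higher after PRATA, and are not separate tests. The share of such pairs among other genes was not taken.

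**Figure D3:**
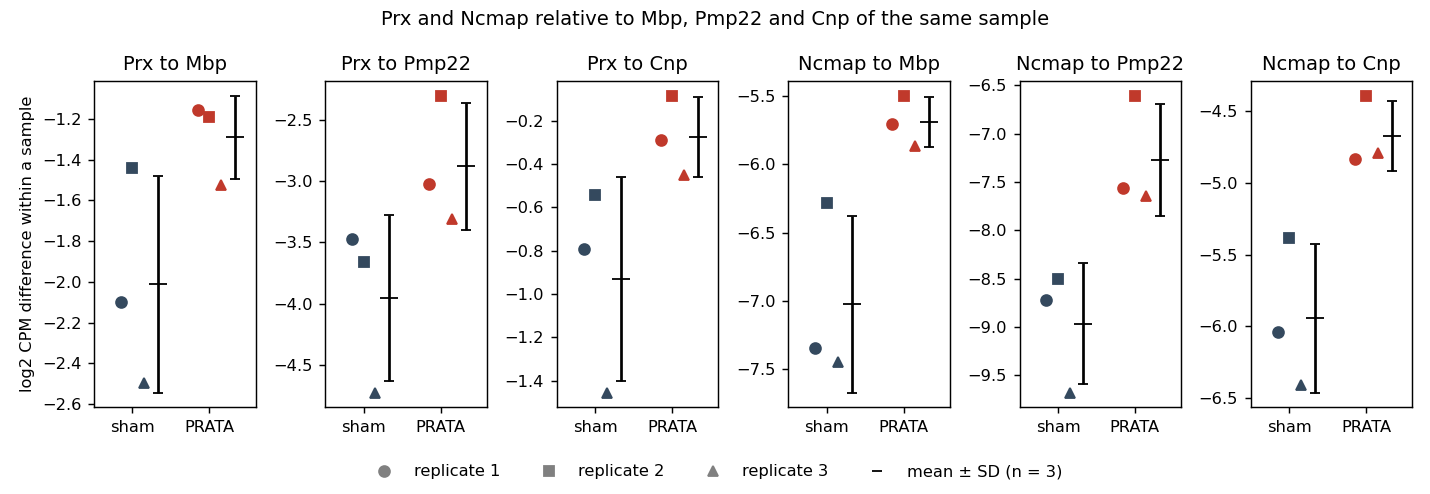
Panels plot the log2 CPM of Prx or Ncmap minus that of Mbp, Pmp22 or Cnp in the same sample, each panel on its own axis, for 3 sham and 3 PRATA samples with the mean ± SD. The groups are apart in 5 of the 6 panels and overlap for Prx to Mbp.

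Other genes of myelin were read from a list of 25 genes, 24 of which were tested. Of these, 15 had a log2 fold change above 0 and 9 below 0, with a median of 0.24. At an unadjusted p under 0.05, 5 were higher after PRATA (Nfasc, Cntn2, Dusp15, Bcas1 and Pllp) and 3 lower (Jam3, Fa2h and Cadm4), and 0 had an adjusted p under 0.05 in edgeR. Such counts, here and in the lists below, stand beside 8.19% higher and 10.1% lower of all genes tested at that unadjusted p. Nfasc and Cntn2, adhesion genes of the axon and its nodes that neurons also express, had log2 fold changes of 0.85 and 0.63. Fa2h, which makes the hydroxylated fatty acids of myelin lipids, was at 3.73 ± 0.557 CPM in PRATA samples and 9.25 ± 4.09 CPM in sham samples (SD, n = 3 each), a log2 fold change of -1.31, and that of Jam3, a junction gene, was -0.79. Drp2, whose protein binds periaxin, was looked up after its value was seen, and it had a log2 fold change of 0.39 with groups that did not overlap (edgeR adjusted p = 0.291).

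Of 23 regulators of myelination, all of which were tested, 2 were higher (Id2 and Jun) and 3 lower (Tead1, Sox10 and Adgrg6) at an unadjusted p under 0.05. That is near the 8.19% higher and 10.1% lower of all genes tested. The 23 had a median log2 fold change of -0.09, and 0 had an adjusted p under 0.05 in edgeR. Sox10, which acts beside EGR2 at myelin genes, was at 63.4 ± 23.4 CPM in PRATA samples and 196.9 ± 80.3 CPM in sham samples (SD, n = 3 each). Its groups did not overlap, and its log2 fold change of -1.63 (edgeR unadjusted p = 0.0024, adjusted p = 0.156) had the opposite sign to those of the 8 genes. This was also the sign of all 15 satellite glial markers described below, and which cells gave the Sox10 reads was not tested. Tead1, a transcription factor of the Hippo pathway, had a log2 fold change of -1.36, Adgrg6, a receptor needed for the start of myelination, one of -1.003 with overlapping groups, and Id2, an inhibitor of differentiation, one of 0.70. For Jun, which is high in injured Schwann cells and in injured neurons, the log2 fold change was 0.89 with overlapping groups.

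Markers of the other cells in the preparation were read in the same samples. All 15 satellite glial markers had a log2 fold change below 0 (median -0.58), 2 of them at an unadjusted p under 0.05, with list means of 6.44 to 7.37 log2 CPM after PRATA and 6.77 to 7.66 after the sham operation. Their summed level ran from 4342 to 7903 CPM after PRATA and from 5597 to 10621 CPM after the sham operation, led by Apoe, with a log2 fold change of -0.62, and Fbln2, with -0.98. All 20 sensory neuron markers had a log2 fold change above 0 (median 0.51), 5 of them at an unadjusted p under 0.05, and their summed level ran from 15604 to 23232 CPM after PRATA and from 10702 to 16450 CPM after the sham operation. Nefm and Nefl led this list, with log2 fold changes of 0.59 and 0.64. No marker of either list that matched the table was at 0 in all samples.

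When each sample was scaled to its sensory neuron markers, the log2 fold change was 1.99 for Ncmap (edgeR unadjusted p = 0.0281), 0.94 for Prx (edgeR unadjusted p = 0.120), 0.27 for Cnp and 0.18 for Mbp, and that of Pmp22 was -0.22. This scaling moved the median of all genes to -0.52, with 23 of 14919 genes higher and 4249 lower at an unadjusted p under 0.05. Scaled to the satellite glial markers, the values were 2.77 for Ncmap, 1.71 for Prx, 1.18 for Cnp and 1.13 for Mbp, and the median of all genes was 0.57, with 1851 higher and 157 lower. The part of the cell types in the differences of the myelin genes was not tested.

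**Figure D4:**
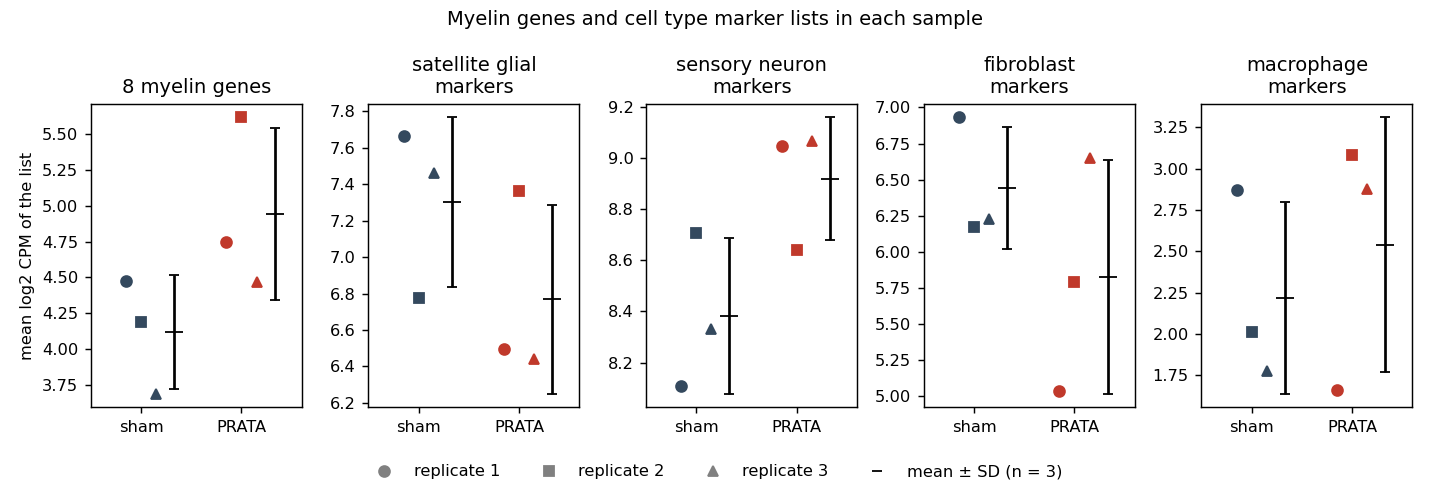
Panels plot the mean log2 CPM of the 8 myelin genes and of 4 lists of cell type markers in each sample, with the mean ± SD of 3 samples per group and a separate axis for each list. PRATA replicate 2 was highest for the myelin genes at 5.62 and also the highest PRATA sample for satellite glial markers at 7.37, whereas it was the lowest PRATA sample for sensory neuron markers at 8.64.

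The other marker lists were less even, though the fibroblast and endothelial lists ran mostly in a single direction. Of 14 genes of non-myelinating or repair Schwann cells, 12 were tested, 3 were higher at an unadjusted p under 0.05 (Ngfr, Shh and Jun) and 2 lower (Gdnf and Runx2), with a median log2 fold change of -0.01. Ngfr, the low-affinity neurotrophin receptor that neurons also express, had a log2 fold change of 0.75, and Gdnf, a growth factor of repair Schwann cells, one of -2.23. Oligodendrocyte markers were low, with a summed level of 27.2 to 38.6 CPM over 11 matched genes, of which 5 were tested and 0 had an unadjusted p under 0.05, and Mog was at 2.03 ± 0.192 CPM in PRATA samples and 1.98 ± 0.719 CPM in sham samples (SD, n = 3 each). The most abundant of them were Gpr37, with a log2 fold change of 0.46, and Omg, with -0.33. The median was -0.45 over 12 fibroblast markers (11 below 0, 1 above), led by Col1a1 at -0.47 and Fn1 at -0.81. It was 0.57 over 12 macrophage markers (8 above 0, 4 below), led by Lyz2 at 1.14 and Cd14 at -0.13. For 9 endothelial markers (8 above 0, 1 below) it was 0.32, led by Cdh5 at -0.05 and Flt1 at 0.32.

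The genes whose levels ran most like the myelin genes over the 6 samples were searched among 9244 genes with a mean of at least 10 CPM. For the mean log2 CPM of Mbp, Mag, Mal and Cnp, the genes with the highest Pearson r included Rgs12, Lrrn3, Ttc30b and Kif19, with r of 0.984 to 0.976. For the mean of Prx and Ncmap, the first was Gfra3, a receptor subunit for the growth factor artemin, with an r of 0.989, followed by Ralgds, Cers4, Tiam1 and Tmem237 with r of 0.988 to 0.980. These r describe 6 samples that share their library depth and cell makeup with every gene of the search.

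**Figure D5:**
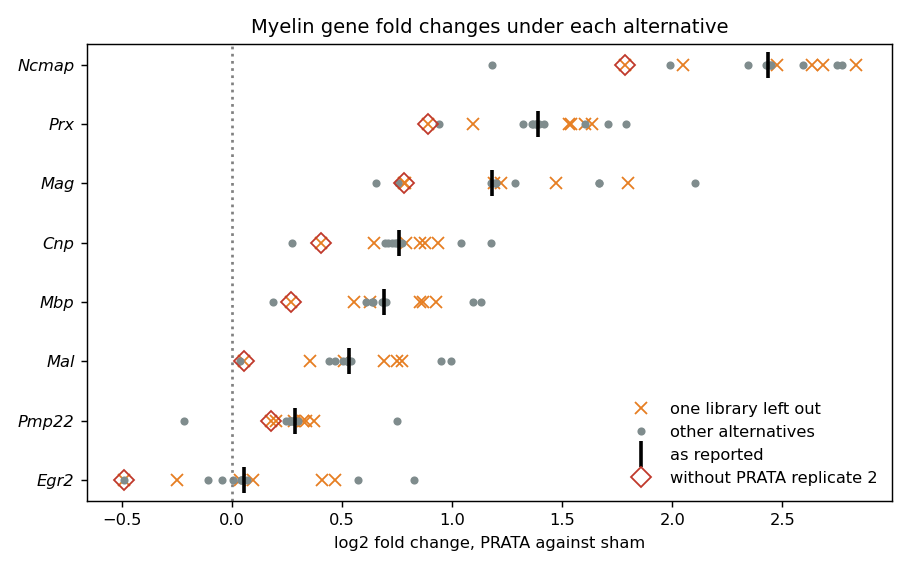
Each mark is the log2 fold change of a gene, PRATA against sham, as reported (black bar), with one library left out (crosses, a diamond for PRATA replicate 2) or under another alternative (dots). Ncmap stays between 1.18 and 2.83 and Prx between 0.89 and 1.79, while Egr2 lies on both sides of 0.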

How the data were processed

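RNA of isolated L1-L2 DRG neurons was sequenced in 6 samples, 3 per group. The deposited values are raw counts of reads per Ensembl gene, made by the authors without normalization. The submitters' processing notes name STAR 2.7.3a, RSEM and DESeq2 without their roles, and the paper's methods describe HISAT2, StringTie and Cuffdiff, so which of them made the counts, the strand setting, the build and the annotation are not given in the sources used here. If RSEM made them, reads shared by similar genes were divided by estimate.

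The analysis used edgeR 4.0.16 under R 4.3.3: filterByExpr (minimum count 10, minimum total 15), TMM scaling and the quasi-likelihood test across all genes, two-sided, and p-values were adjusted by the Benjamini-Hochberg method over every gene tested. Standard errors and 95% intervals come from its F statistic, and log2 CPM uses a prior count of 2. The test was checked on simulated data. DESeq2 1.42.0 and limma 3.58.1 were used for alternatives, and Python 3.11.15 with scipy 1.17.1 and matplotlib 3.10.9 for permutation tests and figures.

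Named genes were the 8 myelin genes, the 4 genes with the smallest p in the lists of other myelin genes and regulators, Sox10, the 2 most abundant genes of each marker list, the genes most alike over the samples, and all genes of any count up to 5. Some genes that this rule names are not reported here. The genes and lists were chosen with earlier results of these data known. The edgeR p-values set the difference between groups against the spread between these samples, estimated with the help of all genes tested. Those of the permutation tests set it against every regrouping of the samples. The groups share replicate numbers, but after group means were removed, samples with the same number correlated across genes with r of -0.35, -0.05 and -0.35, so they were not taken as pairs.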

Additional observations from a re-analysis of the deposited data

How the results depend on the processing

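Over 17 alternatives, or 16 where a stricter filter removed the gene, the log2 fold changes of Mbp, Prx, Ncmap, Mag, Mal and Cnp stayed above 0. Of all 134 values under alternatives, 128 were above 0, and 57 had an unadjusted p under 0.05. These are refits of the same 8 genes on the same samples and are not separate tests. Of the 57, Prx gave 16, Ncmap 15 and Cnp 14. Ncmap passed the low-count filter through the PRATA samples alone, so its values under that filter are tied to it. Mbp gave 7, Mag 4, Mal 1, and Pmp22 and Egr2 0. In edgeR with all samples, 52.0% of all genes tested were above 0 and 8.19% were higher at an unadjusted p under 0.05. The values below 0 were those of Pmp22 when scaled to the sensory neuron markers (-0.22) and of Egr2 with voom quality weights (-0.11), with the replicate block (-0.046), when scaled to the sensory neuron markers (-0.49) and with a library left out (from -0.49 without PRATA replicate 2 to 0.47 without sham replicate 1). The cause was not tested.

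Beside 3 of the 8 genes higher at an unadjusted p under 0.05, there were 6 within the 4 samples alike in 7SL RNA. That fit leaves out PRATA replicate 3 and sham replicate 1. The number was 1 when scaled to the sensory neuron markers (where 23 of all genes were higher and 4249 lower). It was 5 when scaled to the satellite glial markers (1851 and 157). With a library left out, it lay between 1 (without PRATA replicate 2) and 5 (without sham replicate 1). At an adjusted p under 0.05 there were 0 in edgeR, 1 with DESeq2 (Prx, adjusted p = 0.0268, where Ncmap and Mag were given none) and 1 with voom quality weights (Prx, adjusted p = 0.0488). Over its alternatives the adjusted p of Prx ran from 0.0268 to 0.550. A minimum of 10 counts in every sample removed Ncmap and Mag, whose depth is the limit. Over all genes tested, DESeq2 placed 229 higher and 433 lower at an adjusted p under 0.05, voom quality weights 447 and 726, and edgeR without sham replicate 2 placed 162 and 559, against 0 and 0 in edgeR with all samples.

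Under the replicate block, 3 genes were higher at an unadjusted p under 0.05, the log2 fold change of Prx was 1.37 (edgeR adjusted p = 0.461), and the numbers did not pair the samples. The block reduced the genes at an unadjusted p under 0.05 from 1222 to 621 higher and from 1512 to 907 lower. The scaling to satellite glial markers, and both scalings for single genes, were chosen after seeing the data.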
